A study of Mus musculus with 2 samples.

Results

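The mouse autosomes, chr1 to chr19 of the mm9 genome, were divided into all non-overlapping bins of 1 Mb, and the reads of 2 chromatin immunoprecipitation libraries were counted in each of them. The rule gave 2482 autosomal bins of the 2665 bins on chr1 to chr19, chrX and chrY. Both libraries came from E14 cells, a mouse embryonic stem (ES) cell line that the labels place on a C57BL/6 background and that grew in GMEM medium with 15% serum and LIF, the cytokine that keeps mouse ES cells undifferentiated. One library was made with an anti-ZNF322 antibody against the zinc finger protein Zfp322a (Zfp322a library) and the other with rabbit IgG, which recognises no chromatin protein (IgG library). The labels name no genetic change and no treatment for either of them. Each antibody has 1 library, so the values below have no replicate check, intervals cover counting error or the scatter between bins only, and no p-value is given. Whether both libraries came from 1 preparation of cells is not given in the labels. The read names place both in the same instrument run, the Zfp322a library in lane 3 and the IgG library in lane 1.

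Most fragments in a ChIP library are background, that is, DNA carried along without being bound by the antibody's target. Over a megabase such background follows the number of copies of the region in the cells, and also how readily its chromatin breaks, how well its fragments amplify and how many of its positions can be read uniquely. Base composition of the mouse genome is uneven at this scale, with long GC-rich, gene-rich stretches that replicate early and AT-rich, gene-poor stretches that are packed at the nuclear periphery. Gains of chromosome 8 are a well-known culture change of mouse ES cells. A reading of read density alone cannot tell these contributions apart.

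Read density was therefore the share of a library's autosomal reads in a bin divided by the bin's share of unique 36-mer starts, so that 1 is the autosomal mean. A bin entered the comparisons if at least 50% of its positions start a unique 36-mer, which 2346 bins did. Of the 136 bins left out, 65 held no unique start at all. Reads of mapping quality 25 or more numbered 4036226 on the autosomes in the Zfp322a library and 3794069 in the IgG library. A bin held a median of 1480 Zfp322a reads (267 to 7129) and 1437 IgG reads (173 to 6743), so that counting error at the median was 2.60% and 2.64% of the count.

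Base composition is shown by 100 bases from the middle of 3 bins, taken from the forward strand of mm9 with G and C in capitals. They are the bin with the lowest Zfp322a over IgG ratio (chr8:99499951-99500050), the bin with the highest (chr5:35499951-35500050) and a bin of median GC content (chr10:128499951-128500050).
Lowest ratio: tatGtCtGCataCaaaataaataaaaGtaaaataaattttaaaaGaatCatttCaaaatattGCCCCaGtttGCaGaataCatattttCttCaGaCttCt
Highest ratio: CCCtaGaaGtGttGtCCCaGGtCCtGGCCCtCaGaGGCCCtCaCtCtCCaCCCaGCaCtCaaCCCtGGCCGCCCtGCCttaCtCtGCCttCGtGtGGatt
Median GC: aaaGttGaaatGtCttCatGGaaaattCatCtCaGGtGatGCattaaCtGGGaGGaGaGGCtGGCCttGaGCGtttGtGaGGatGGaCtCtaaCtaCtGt
The 3 stretches held 24, 62 and 44 G or C bases and 0, 2 and 1 CpG dinucleotides. Over their whole bins GC content was 38.2%, 48.3% and 41.8%. The bin with the lowest ratio had 772 Zfp322a reads against 1400 IgG reads, and the bin with the highest ratio had 3083 against 1423. Their ratios were 0.518 and 2.04. Once the GC trend over bins was divided out these were 0.608 and 1.81, so both stayed far from 1.

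Both libraries were dense in GC-rich bins and thin in AT-rich ones. Outside the 5 segments described further on, bins with 36 to 38% GC had a median density of 0.403 in the Zfp322a library and 0.508 in the IgG library (n = 339 bins). At 42 to 44% GC the medians were 1.05 and 1.06 (n = 421). At 48 to 50% GC they were 2.06 and 1.86 (n = 94). The slope was thus steeper in the Zfp322a library, which lay under the IgG library at low GC and over it at high GC. Across all 2346 bins, Spearman's rho of density with GC content was 0.940 for Zfp322a and 0.921 for IgG (Pearson's r 0.914 and 0.898). These are descriptions across bins, which share a library, and neighbouring bins are not independent. The densities of the 2 libraries followed each other with a rho of 0.958, which fell to 0.70 after the GC trend of each was removed.

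The Zfp322a over IgG ratio, the share of reads in one library divided by the share in the other, rose with GC from a median of 0.770 in the 9 bins under 36% GC to 1.14 in the 30 bins of 50% GC and over. Its rho with GC was 0.612 over all 2346 bins and 0.686 over the 2199 bins outside the 5 segments. The ratio had a median of 0.957 over all bins and not 1, since the GC-rich bins, where it is higher, hold more of the reads. CpG content followed GC content closely (rho 0.935), and its rho with the ratio was 0.592. The part of CpG content and of GC content in the ratio was not separated.

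**Figure D1:**
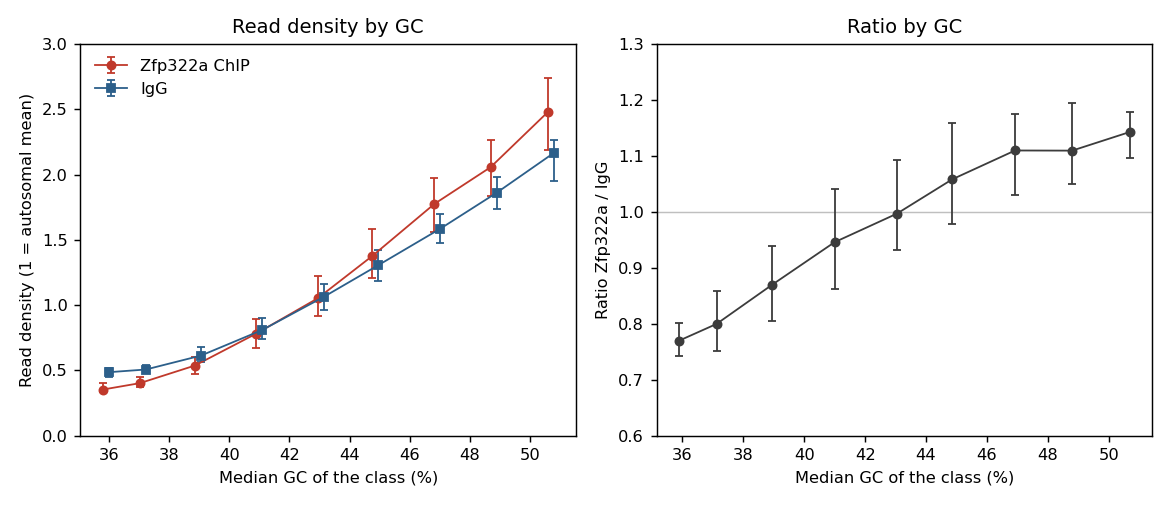
Median read density (left, 1 = autosomal mean) and median Zfp322a over IgG ratio (right) in 9 classes of bin GC content outside the 5 segments, plotted at the class's median GC in percent, with bars from the lower to the upper quartile of the bins. Both libraries climb with GC, the Zfp322a library from 0.354 to 2.48 and the IgG library from 0.487 to 2.17, and the ratio climbs from 0.770 to 1.14.

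Gene-rich bins had a higher ratio than gene-poor ones. A bin held a median of 6 starts of protein-coding genes, with 256 bins at 0 and a highest count of 79. Outside the segments the 238 bins without a start had a median ratio of 0.812, the 551 bins with 5 to 9 starts 0.977, and the 217 bins with 20 to 39 starts 1.15. Spearman's rho of the ratio with gene starts was 0.591 over all 2346 bins. Gene number and GC content go together (rho 0.695), so the ratio was also compared among bins of like GC.

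Within classes of GC the difference by gene number was present in each class and small at the AT-rich end, where GC content was not fully matched. At 36 to 38% GC, bins with more starts than the class median had a median ratio of 0.815 against 0.795 in the others. At 44 to 46% GC the medians were 1.14 and 1.01, a difference of 0.134. Both libraries were denser in the gene-rich bins of that class, with medians of 1.55 against 1.24 in the Zfp322a library and 1.39 against 1.22 in the IgG library. The rho of gene starts with the ratio was lowest at 36 to 38% GC, 0.124, and highest at 48 to 50% GC, 0.649, among the 7 classes. At 36 to 38% GC the gene-rich bins also had a higher median GC content, 37.47% against 36.96%. The small difference in ratio there was not separated from GC content. Gene-rich bins were also higher in GC in the other classes, except at 42 to 44% and 48 to 50% GC. In these their median GC content was 43.02% against 43.05% and 48.78% against 48.91%, with median ratios of 1.05 against 0.963 and 1.19 against 1.07. After the GC trend was taken out over all bins, the rho of the ratio with gene starts was 0.198. Leaving out the reads within 1 kb of a transcript start brought the unadjusted rho to 0.553 over all bins.

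**Figure D2:**
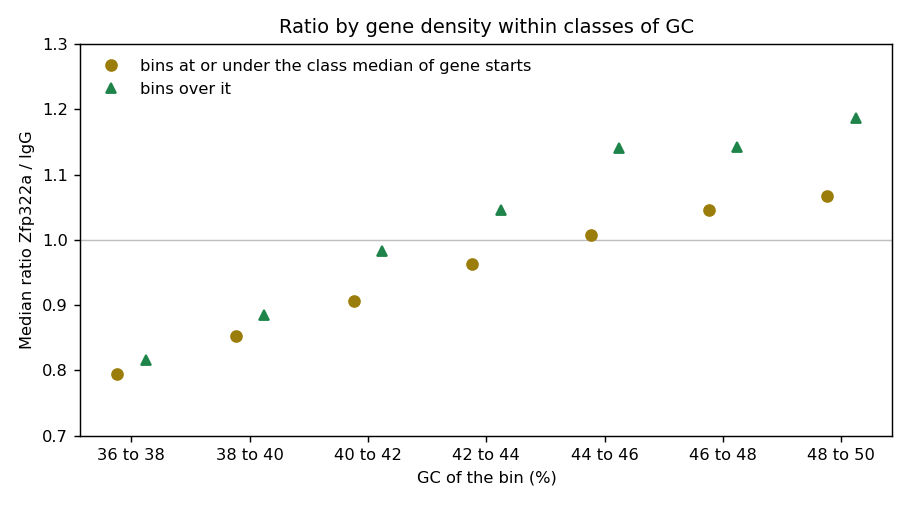
Median Zfp322a over IgG ratio of bins at or under (circles) and over (triangles) the median number of protein-coding gene starts of their GC class, by class of GC in percent, outside the 5 segments. The triangle lies above the circle in each of the 7 classes, by 0.0206 at 36 to 38% GC and by 0.119 at 48 to 50% GC.

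A bin was called high when its ratio was at least 25% above 1 and low when it was at least 20% below 1, a rule of size that stands in place of a test. Without adjustment for GC, 118 bins were high (5.03% of 2346) and 387 were low (16.5%). With all mapped reads in place of those with a mapping quality of 25 or more, 88 were high (3.75%) and 173 were low (7.37%). The high bins had a median GC content of 44.8% and 12 gene starts, and the low bins 38% and 1 gene start. After the GC trend was divided out, 106 bins were high (4.52%) and 139 were low (5.92%). Of these 139, 81 lay on chr8 beyond 45 Mb, 44 on chr10, chr12 and chr18, and 14 elsewhere. Of the 106 high bins, 42 lay in segments of chr5 and chr14, 46 on chr3, chr9 and chr16, and 18 elsewhere.

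On chr8 beyond 45 Mb both libraries had more reads for their unique starts than the rest of the autosomes, and at like GC content the IgG library stood well above it and the Zfp322a library near it. The 85 bins that passed there (of 87) had a median IgG density of 1.44 and a median Zfp322a density of 1.0, against 0.876 and 0.852 in the other 2261 bins. Adjusted for GC, the IgG density was 1.47 (95% order-statistic interval of the median 1.43 to 1.52) and the Zfp322a density was 1.04 (0.993 to 1.07). Of all 122 autosomal bins with an adjusted IgG density at least 25% above 1 (5.20% of 2346), 76 lay on distal chr8, against 7 of the 218 bins with such a Zfp322a density (9.29%). In the 39 bins of chr8 before 45 Mb the adjusted densities were 0.951 for IgG and 0.958 for Zfp322a, so the libraries ran together up to the step and apart after it. From before to beyond 45 Mb the adjusted median changed 1.54-fold in the IgG library and 1.09-fold in the Zfp322a library. The median ratio of distal chr8 was 0.665 unadjusted and 0.681 (0.669 to 0.706) adjusted. The distal part of chr8 took 5.77% of the autosomal IgG reads and 4.09% of the autosomal Zfp322a reads, with 3.64% of the unique starts. Cells that differ between the preparations, a difference made in the library and a difference made by the antibody cannot be told apart with 1 library of each.

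The higher IgG level ran from the step to the end of the chromosome. All 85 bins had an adjusted IgG density over 1 (1.08 to 1.81), and 76 of them lay over the highest bin before 45 Mb. Of the 2160 bins outside the segments on other autosomes, 2 had an adjusted IgG density over the chr8 median. In stretches of 15 Mb or less, the adjusted IgG median was 1.49 at 45 to 60 Mb, 1.62 at 60 to 75 Mb, 1.57 at 75 to 90 Mb, 1.41 in each of the 3 stretches from 90 Mb to the end. The Zfp322a median in the same stretches ran from 0.929 to 1.11, with its higher values between 60 and 90 Mb, where the IgG values were also higher. The ratio stayed between 0.673 and 0.706 in each of these stretches, against 0.984 to 1.0 in the 3 stretches before 45 Mb.

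The higher IgG level of distal chr8 was present in each class of GC content. At 36 to 38% GC, 14 bins of distal chr8 had a median IgG density of 0.729 against 0.508 in 339 bins elsewhere, 1.44-fold. At 42 to 44% GC the values were 1.52 against 1.06, 1.43-fold, and at 46 to 48% GC 2.22 against 1.59, 1.4-fold. Over the 8 classes the IgG fold ran from 1.4 to 1.64, and the Zfp322a fold from 0.943 to 1.1. Within distal chr8 both libraries kept the GC trend of the rest of the genome, with a rho of 0.965 in the Zfp322a library and 0.971 in the IgG library over 85 bins.

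**Figure D3:**
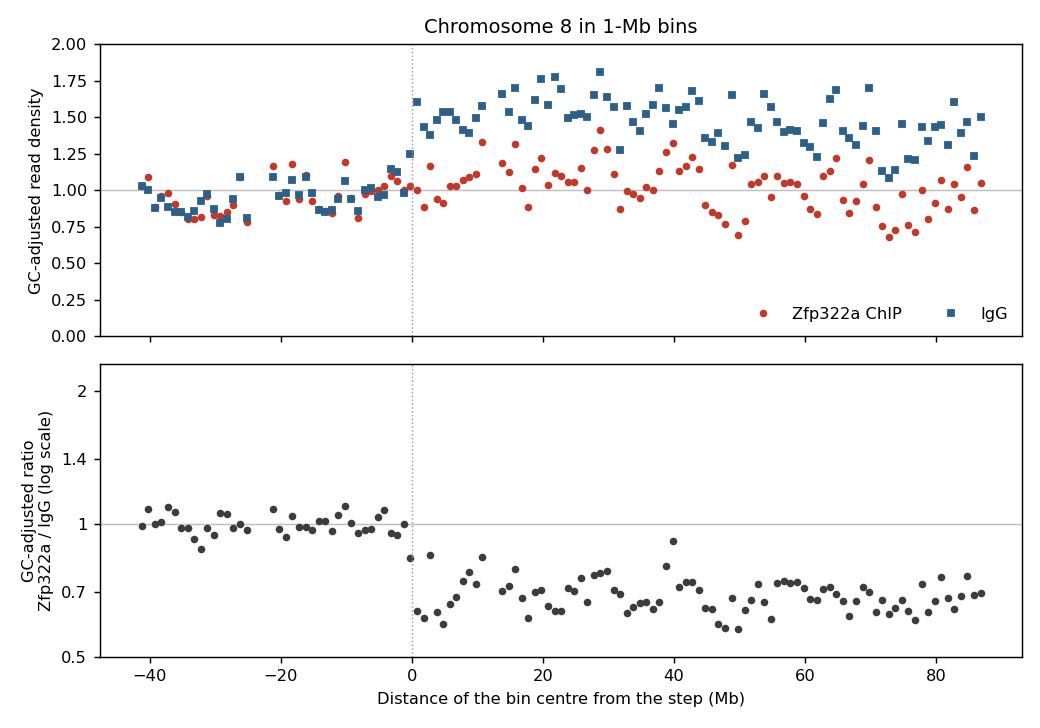
GC-adjusted read density of the 1-Mb bins of chr8 in the Zfp322a (circles) and IgG (squares) libraries (top) and their GC-adjusted ratio on a log scale (bottom), by distance of the bin centre from the step in Mb. The libraries overlie each other before the step, and after it the IgG bins centre on 1.47 and the Zfp322a bins on 1.04.

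The bins on both sides of the step show its position. The bin at 43 to 44 Mb had 670 Zfp322a and 785 IgG reads and a ratio of 0.802 (exact 95% counting interval 0.723 to 0.891), which is even after GC adjustment (1.0). The next bin, 44 to 45 Mb, had 926 and 1194 reads and a ratio of 0.729 (0.668 to 0.795). It holds *Zfp42* (Rex1, a zinc finger gene widely used as a marker of naive pluripotency), the testis gene *Adam34* and *Triml2*. The bin at 45 to 46 Mb, without a protein-coding start, had 941 and 1591 reads and a ratio of 0.556 (0.512 to 0.603), and its adjusted IgG density was 1.60. The Zfp322a reads of these bins thus stayed near their GC-matched level (adjusted density 1.0, 1.03 and 1.0) while the IgG density was 0.980 in the first of them and 1.60 in the last.

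Further in, the bin at 46 to 47 Mb, which carries *Sorbs2* and the atypical cadherin gene *Fat1*, had a ratio of 0.607 (0.567 to 0.649). The bin at 47 to 48 Mb, with *Irf2* (an interferon regulatory factor) and *Acsl1* (an acyl-CoA synthetase), had 2282 and 2545 reads and a ratio of 0.843 (0.796 to 0.892), the highest of the 5 bins after 45 Mb. The bins at 48 to 49 Mb and 49 to 50 Mb returned to 0.664 and 0.592. The 4 bins from 40 to 44 Mb had ratios of 0.802 to 0.908 and adjusted IgG densities of 0.968 to 1.14. In windows of 10 kb the change in the share of Zfp322a reads was placed at chr8:44690001, with positions from 44500001 to 44760001 within 2 log-likelihood units, a span of 260 kb that holds *Adam26b*, *Adam26a*, *Gm5346* and *Adam34*.

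A search of each autosome for stretches of at least 5 bins whose median adjusted ratio differed by at least 0.3 on the log2 scale, a rule set after the values had been seen, split 3 of 19 autosomes. These were chr8, chr5 and chr14. On chr5 the 10 bins from 34 to 44 Mb had an adjusted IgG density of 0.461 and a Zfp322a density of 0.842, with a ratio of 1.81 (1.73 to 1.84). On both sides of it the ratio was 0.960 (28 bins) and 1.0 (106 bins). The unadjusted ratio of the 10 bins lay between 1.54 and 2.04, against 0.972 and 1.09 in the pair of bins before it and 0.878 and 0.907 in the pair after it. Within the segment the first bin, 34 to 35 Mb, had the highest adjusted IgG density, 0.665, and the others lay between 0.429 and 0.491.

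The segment of chr5 holds 76 starts of protein-coding genes. The bin at 35 to 36 Mb carries *Htt* (huntingtin), *Grk4* (a G protein-coupled receptor kinase) and *Rgs12* (a regulator of G protein signalling), with 3083 Zfp322a and 1423 IgG reads and a ratio of 2.04 (1.91 to 2.17). The gene-poor bin at 40 to 41 Mb, named after its values were seen, with the heparan sulfate sulfotransferase gene *Hs3st1*, had 659 and 403 reads and a ratio of 1.54 (1.36 to 1.74). Adjusted for GC these bins had nearly the same ratio, 1.81 and 1.79. The edges were placed at chr5:34270001, inside *Whsc2*, and at chr5:44080001, inside *Cc2d2a*, with support over 20 and 30 kb.

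Chr14 had a low IgG density over a much longer stretch, and a Zfp322a density that was low in its middle. Over the 52 bins from 33 to 89 Mb the adjusted IgG density was 0.508 (0.481 to 0.522), with all of them between 0.384 and 0.608. Of the 139 autosomal bins with an adjusted IgG density at least 20% below 1 (5.92% of 2346), 52 were these and 10 were the chr5 segment. The Zfp322a density in the 52 bins was 0.706 and ran from 0.449 to 1.04. From 33 to 52 Mb (16 bins) the densities were 0.795 for Zfp322a and 0.476 for IgG, a ratio of 1.66 (1.53 to 1.71). From 52 to 77 Mb (24 bins) they were 0.581 and 0.513, a ratio of 1.14 (1.06 to 1.19). From 77 to 89 Mb (12 bins) they were 0.842 and 0.525, a ratio of 1.59 (1.47 to 1.75). The IgG library was thus low at one level throughout, and the Zfp322a library came down to nearly the same level in the middle segment and stayed above it on both sides.

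The outer edges on chr14 were sharp and the inner ones were not. The ratio changed at chr14:32640001, inside *Ankrd28*, with support over 60 kb, and at chr14:88740001, 124554 bases before the protocadherin gene *Pcdh20*, with support over 30 kb. The inner changes were placed at chr14:49160001 and chr14:79230001, with support over 1570 and 850 kb. Bin by bin the adjusted ratio came down from 1.70 at 48 to 49 Mb to 1.38 at 51 to 52 Mb and 1.13 at 54 to 55 Mb, and climbed from 1.15 at 75 to 76 Mb to 1.47 at 78 to 79 Mb. Outside the edges the ratio was under 1, with 0.836 from 9 to 33 Mb (24 bins) and 0.891 beyond 89 Mb (36 bins), where the Zfp322a density was 0.743 and 0.918.

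**Figure D4:**
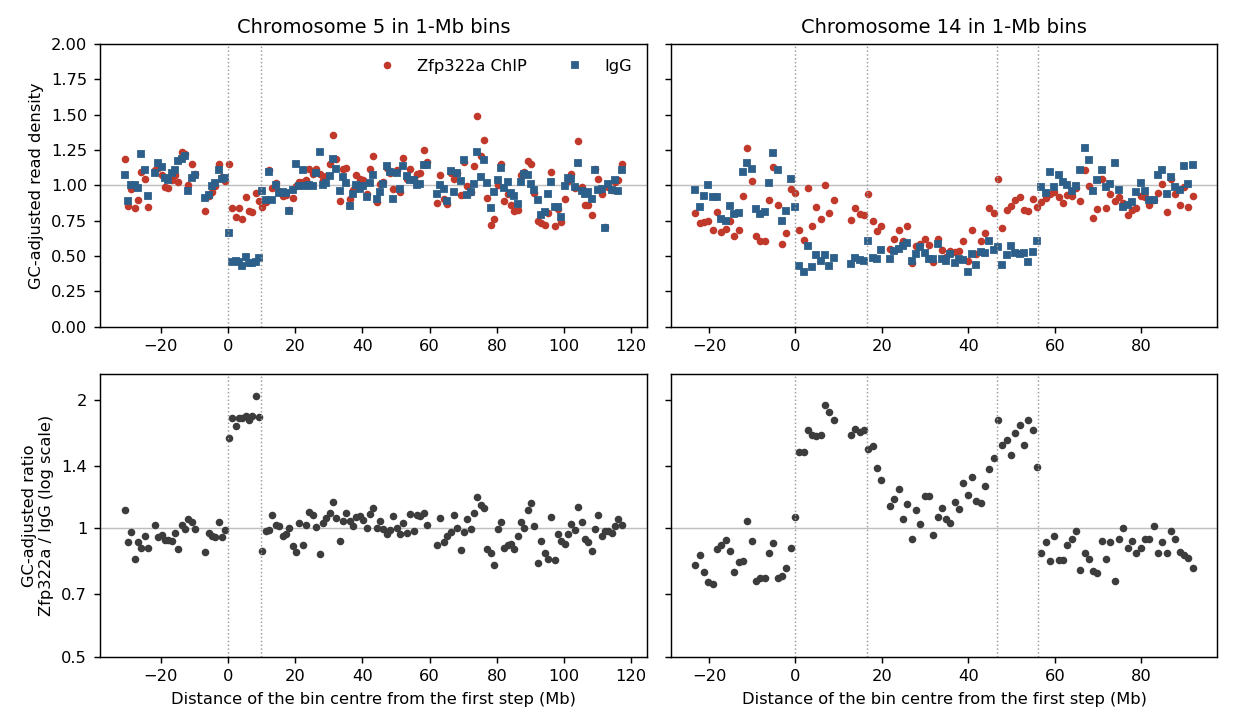
GC-adjusted read density (top) and GC-adjusted Zfp322a over IgG ratio on a log scale (bottom) of the 1-Mb bins of chr5 (left) and chr14 (right), by distance of the bin centre from the first step of the chromosome in Mb, with dotted lines at the placed steps. On chr5 the 10 bins after the first step hold an IgG density of 0.461, and on chr14 the IgG density is 0.508 over 52 bins while the Zfp322a density dips to 0.581 in the middle.

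The X chromosome gives a scale for these levels, since E14 is a male line with 1 copy of it beside 2 of each autosome. In the IgG library its 144 bins had an adjusted density of 0.527 (0.513 to 0.535), close to the value of 0.5 that 1 copy against 2 would give and to the IgG levels of the chr5 and chr14 segments. The IgG level of distal chr8, 1.47, lay close to the value of 1.5 for 3 copies against 2. These are levels relative to the other autosomes. No count of chromosomes was made, and the cause of the levels was not tested. In the Zfp322a library chrX had an adjusted density of 0.786 (0.766 to 0.816), so that the scale does not carry over to that library. On chrY only 2 bins passed, with 499 Zfp322a and 933 IgG reads. There the order was the other way, with adjusted densities of 0.408 in the Zfp322a library and 0.720 in the IgG library.

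Outside chr5, chr8 and chr14, whole chromosomes also differed in the Zfp322a library and less in the IgG library. Over the whole of chr8 and chr14 the adjusted IgG density was 1.39 and 0.798, and the adjusted Zfp322a density 1.0 and 0.823. On chr16 the adjusted Zfp322a density was 1.20 (1.15 to 1.22), on chr3 1.16 (1.14 to 1.20) and on chr9 1.12 (1.05 to 1.17). On chr18 it was 0.837 (0.810 to 0.889), on chr12 0.853 (0.833 to 0.881) and on chr10 0.916 (0.894 to 0.943). The intervals of these 3 high and 3 low chromosomes did not overlap, while those of chr16 and chr3, and those of chr18 and chr12, overlapped. The chromosomes were grouped by their adjusted ratio after the values had been seen, so the gap between the groups is no test of a difference. The intervals also treat bins as independent, while the adjusted Zfp322a density of neighbouring bins had a rho of 0.508. Of 218 bins with an adjusted Zfp322a density at least 25% above 1, 110 lay on chr3, chr9 and chr16, and of 238 bins at least 20% below 1 (10.1% of 2346), 82 lay on chr10, chr12 and chr18. In the IgG library the same 6 chromosomes lay between 0.971 and 1.04. Among the other 10 autosomes that the search of the ratio did not split, the Zfp322a median ran from 0.930 to 1.04 and the IgG median from 0.943 to 1.02. Run on the adjusted density of each library, the search split 5 autosomes for IgG and 3 for Zfp322a. Those among the 10 were chr4 and chr13 for IgG, and chr4 and chr6 for Zfp322a.

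These 6 chromosomes were chosen by their median adjusted ratio, so that most of their bins lie on 1 side of 1 follows from that choice. The counts below only describe how the bins were spread along each chromosome. Over all 2346 bins the median adjusted ratio was 0.996. Of the bins of chr3, 141 of 156 had an adjusted ratio over 1, of chr9 110 of 121, and of chr16 87 of 94. On chr10, 3 of 127 bins did, on chr12 6 of 112, and on chr18 3 of 88. The median adjusted ratio was 1.09 and 1.17 in the proximal and distal bins of chr3, divided at the middle bin. It was 1.08 and 1.16 on chr9, and 1.14 and 1.17 on chr16. It was 0.875 and 0.891 on chr10, 0.879 and 0.873 on chr12, and 0.844 and 0.879 on chr18. The 6 chromosomes were set apart after their values had been seen, with a median adjusted ratio under 0.9 or over 1.1, and chr8 was the seventh to pass that limit.

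**Figure D5:**
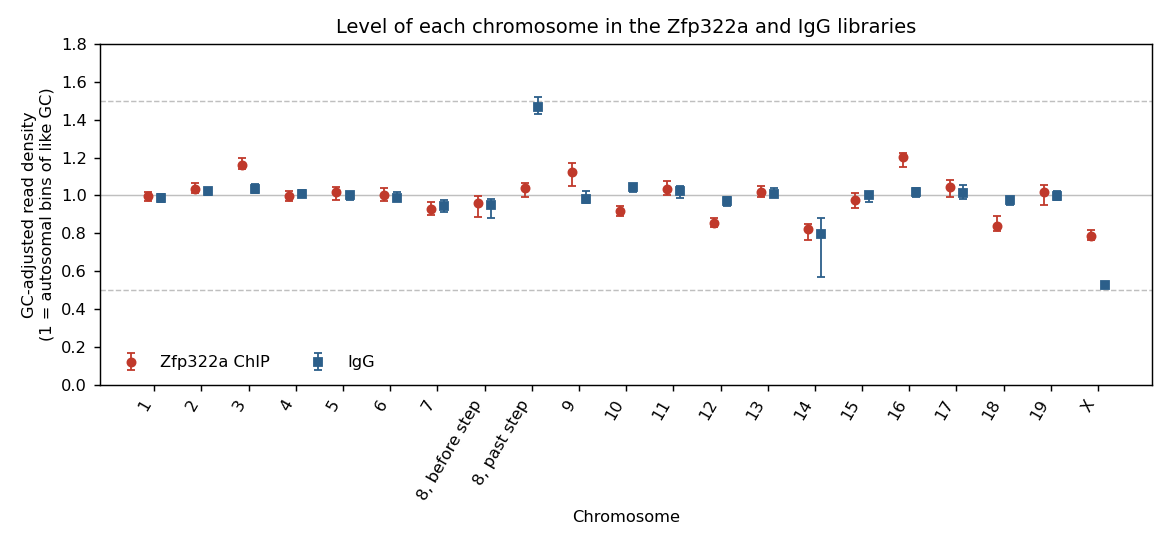
Median GC-adjusted read density of each autosome and chrX in the Zfp322a (circles) and IgG (squares) libraries, with chr8 divided at 45 Mb, and bars for the 95% order-statistic interval of the median over bins. Dashed lines mark the densities of 1 and 3 copies against 2, drawn for scale only. The IgG library lies near 1 except on distal chr8 (1.47), chr14 (0.798) and chrX (0.527). The Zfp322a library is highest on chr16 (1.20) and lowest on chrX (0.786), chr14 (0.823) and chr18 (0.837).

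The 10 bins with the lowest unadjusted ratio all lay on chr8 beyond 45 Mb, at 0.518 to 0.570. They were AT-rich (36.1 to 39.3% GC) and held 11 protein-coding starts between them. Among them the bin at 65 to 66 Mb, with *Spock3* (a testican proteoglycan gene), had 669 Zfp322a and 1204 IgG reads, and the bin at 66 to 67 Mb, with *Tll1* (a tolloid-like metalloprotease gene), had 846 and 1507. The 10 highest, at 1.76 to 2.04, lay in the segments of chr5 (6 bins) and chr14 (4 bins) and held 109 starts. On chr14 they included the bin of *Samd4* and *Gch1*, the first enzyme of tetrahydrobiopterin synthesis, with 1886 and 1007 reads.

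A few bins stood far from their GC-matched level in both libraries. At chr17 39 to 40 Mb, a bin without a protein-coding start, the adjusted density was 5.17 in the Zfp322a library and 4.35 in the IgG library. One window of 10 kb held 85.5% of its Zfp322a reads and 85.4% of its IgG reads, and without that window the unadjusted densities came down from 2.14 to 0.313 and from 2.27 to 0.334. The bin at chr11 3 to 4 Mb, with *Osbp2*, *Drg1* and *Limk2*, had the highest density in both libraries, 4.02 and 4.05, and its highest 10-kb window held 9.97% and 11.4% of its reads. The ratio of these bins was 0.942 and 0.994.

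At the other end, chr4 112 to 113 Mb, with the *Skint* genes of immunoglobulin-like skin and thymus proteins, had 270 Zfp322a and 173 IgG reads and adjusted densities of 0.435 and 0.237. The bin beside it, with *Skint5* and *Skint11*, had 309 and 322 reads. At chr6 130 to 131 Mb, where 7 *Klra* genes encode Ly49 receptors of natural killer cells, the adjusted densities were 0.579 and 0.409. At chr7 67 to 68 Mb, the bin of the imprinted splicing gene *Snrpn*, they were 0.501 and 0.470. Both libraries were low in each of these bins, though not equally. The adjusted ratio was 1.82 in the first *Skint* bin (unadjusted 1.47, 1.21 to 1.79), 1.11 in the next, 1.4 in the *Klra* bin and 1.06 in the *Snrpn* bin.

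Bins of clustered gene families were read next. Olfactory receptor (*Olfr*) clusters, with at least 5 members in 49 bins that passed, had a low median density in both libraries, 0.668 for Zfp322a and 0.672 for IgG, at a median GC content of 40.1%. Their median ratio was 0.962 unadjusted and 1.04 adjusted, with 4 bins high and 6 low, against 5.03% high and 16.5% low over all bins. Of the 49 bins, 2 lay in the 5 segments, both on chr14 and both high. Vomeronasal receptor clusters (*Vmn1r* and *Vmn2r*, 21 bins) were alike, with densities of 0.593 and 0.652 and an adjusted ratio of 1.07. The lowest ratio among them, 0.646, was at chr7 93 to 94 Mb in a bin shared by both families.

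Clusters of developmental and housekeeping genes were denser before GC adjustment, in bins of higher median GC content than the *Olfr* bins. The 4 *Hox* bins, which hold the clustered homeobox genes of body patterning, had unadjusted densities of 1.55 and 1.44 and an adjusted ratio of 1.0. Adjusted for GC, their densities were 1.05 for Zfp322a and 1.06 for IgG, near the 1.04 and 1.01 of the *Olfr* bins. Adjusted densities were 1.06 and 1.04 in bins with a ribosomal protein gene, and higher in histone gene bins, 1.28 and 1.12. The *Hoxb* bin on chr11 and the *Hoxc* bin on chr15 had ratios of 1.17 and 1.16, and the *Hoxd* bin on chr2 and the *Hoxa* bin on chr6 0.944 and 0.943. The 4 bins of replication-dependent histone genes had a median adjusted ratio of 1.13 (lowest bin 1.07, highest bin 1.28). They were the adjacent bins from chr13 21 to 24 Mb, which also hold olfactory or vomeronasal receptor clusters, and a bin of chr3. The highest of them, chr13 23 to 24 Mb, held 29 histone genes and *Zfp322a* itself. That bin had 1948 Zfp322a and 1540 IgG reads and an unadjusted ratio of 1.19 (1.11 to 1.27). Bins of numbered *Zfp* zinc finger genes (17 bins) had an adjusted ratio of 1.06, and the 129 bins with a ribosomal protein gene (*Rpl* or *Rps*) 1.03. Of these 129, 14 were high and 14 low by the unadjusted ratio, beside 5.03% and 16.5% of all bins, and 10 of them lay in the 5 segments. The 5 keratin bins had 1.07, the 3 defensin bins 1.05, and the 1 bin of clustered protocadherins, on chr18, 0.894.

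Loci of pluripotency regulators were spread over the same levels. Of 22 genes on the list, 19 had an autosomal bin that passed, in 18 bins, with a median ratio of 1.0 unadjusted and adjusted. *Tfcp2l1* was not matched by symbol, *Nr0b1* lies on chrX, and the last bin of chr7, with *Fgf4*, did not pass. Of these, 2 genes were high, *Lin28a* (an RNA-binding protein that blocks let-7) at 1.3 (1.24 to 1.35) and *Tdgf1* (the Nodal co-receptor Cripto) at 1.28 (1.22 to 1.34), and after GC adjustment these were 1.16 and 1.16, so none was high. *Zfp42* was low, as described above. Over all bins 5.03% were high and 16.5% low.

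The list has 2 members on chr8, *Klf2* beyond the step and *Zfp42* just before it. *Klf2*, a Krüppel-like factor of naive pluripotency, at chr8:74842932-74845555, lies in a GC-rich bin with 3635 Zfp322a and 3955 IgG reads. Its densities were 2.34 and 2.70, and its ratio of 0.864 (0.826 to 0.904) was 0.783 after GC adjustment, which made it the 1 gene of the list that was low once adjusted. *Zfp42*, at chr8:44380422-44392363, lies before the placed step, in the bin that the step divides. The bins of *Pou5f1* and *Nanog*, the core transcription factors, had ratios of 1.21 (1.16 to 1.27) and 1.11 (1.04 to 1.18), and those of *Sox2*, *Klf4* and *Esrrb* 0.961, 0.994 and 0.904.

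The deposited list of Zfp322a intervals was compared with these segments. It is shorter than the set of binding sites that the study describes, so the rates hold for the deposited list alone. Of the 754 distinct Zfp322a intervals deposited, 732 lay on autosomes and 724 in bins that passed, or 3.51 for each 100 protein-coding starts. On chr8 beyond 45 Mb there were 6 intervals with 766 starts (0.783 for each 100), and on chr8 before 45 Mb 6 with 276 starts (2.17). On chr5 34 to 44 Mb there were 7 intervals with 76 starts (9.21). In the low-IgG flanks of chr14 there were 6 with 192 starts (3.13), and in the segment from 52 to 77 Mb, where both libraries are low, 3 with 316 starts (0.949). Outside the segments there were 702 with 19303 starts (3.64). The detection filtered on fold over IgG, so these counts and the ratio share the IgG reads, and counts of 3 to 7 are small.

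Bins varied far more than counting allows in both libraries. The variance of bin counts about an even spread over unique starts was 510 times the Poisson variance in the Zfp322a library and 338 times in the IgG library. The SD of log2 density was 0.78 and 0.64, against 0.04 from counting alone, and GC adjustment brought both to 0.27. The log2 ratio had an SD of 0.26, against 0.06 from counting. Dividing the libraries thus removed most of the spread that they share and left a remainder that counting does not account for. Neighbouring bins were alike, with a rho of 0.709 for Zfp322a density, 0.724 for IgG density and 0.704 for the ratio over 2300 pairs, and 0.642 for the ratio after GC adjustment. Leaving out the 5 segments lowered the last to 0.582.

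When each autosome was divided once, at the place that most lowered the squared deviations of the adjusted log2 value, chr8 stood apart. The split at 44 Mb removed 78.6% of the squared deviations of the IgG density there, and the split at 45 Mb 82.4% of those of the ratio. In the Zfp322a library the best split of chr8 was at 115 Mb and removed 9.20%. On chr14 the best split of the IgG density was at 89 Mb and removed 46.8%, and that of the Zfp322a density was at 77 Mb and removed 32.4%. On the other 17 autosomes no split removed more than 19% in the ratio.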

How the data were processed

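Chromatin from E14 cells was sequenced on a Genome Analyzer IIx, 1 Zfp322a and 1 IgG library, and groups came from the labels. Per the submitters' processing notes, CASAVA 1.4, BWA and Partek 6.6 were used, and the reads were aligned to mm9. The deposited alignments carry, for each read, a mapping quality score that the authors' aligner gave it. The deposited Zfp322a intervals were used for counts of regions only, and those of the IgG library were not used here.

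Reads with a mapping quality score of at least 25 were counted by their leftmost aligned base on either strand. No 5′ position and strand occurred more than once in either library, and 18.9% of autosomal reads in each fell under that score. Uniqueness was measured on 1 in 16 distinct 36-mers of the reference, and bins with at least 50% unique starts were kept. GC adjustment subtracted the median log2 value of 40 classes of GC, set without chr8 beyond 45 Mb. Gene starts were the protein-coding genes of the GENCODE annotation of mm9. Medians carry order-statistic intervals and ratios exact conditional intervals, at 95%. PCR reads are not independent molecules, so count-based intervals cover counting error only. Segments needed at least 5 bins and a difference of 0.3 in log2, a method tried on simulated data with changes planted in 1 library. The simulated scatter was independent from bin to bin, while neighbouring bins here were alike. The simulation therefore cannot tell how often false or weak segments arise in these data. The design foresaw that extra copies would raise both libraries alike.

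Bins named were the 10 highest and 10 lowest ratios, the 5 highest and 5 lowest densities of each library, chr8 from 40 to 50 Mb, and those with a listed gene family or pluripotency gene. In a named bin up to 3 of the longest genes were given. The members and lists were chosen with earlier results of these data known. The segments, their neighbouring bins and the chromosome groups were chosen after the values were seen. Alternatives changed the read filter, bin size, bin filter and regions left out. The 36-mer search was compiled with g++ 11.4.0, figures drawn with matplotlib 3.10.9, and the statistics computed with scipy 1.17.1, with pandas 2.3.3 and numpy 2.4.6 under Python 3.11.15.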

Additional observations from a re-analysis of the deposited data

Results flagged for a closer look

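The X chromosome, which is outside the autosomal comparisons, stood apart in the ratio. Its GC-adjusted Zfp322a over IgG ratio was 1.49 (95% order-statistic interval 1.41 to 1.57) over 144 bins, and 1.29 without the adjustment. The adjusted density was 0.786 in the Zfp322a library and 0.527 in the IgG library. It is listed because the ratio lies above the level of the autosomes in data that the comparisons do not use, and its cause was not tested.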

How the results depend on the processing

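Of 399 values under alternative settings, 352 stayed within the interval of the reported value or, for counts, within 1.5 times the reported count. Another 47 moved further, and no called value changed direction. The intervals of rho (0.915 to 0.927 for IgG density with GC) and of medians took bins as independent, which neighbouring bins were not. The tally depends on that assumption. With all mapped reads, rho with GC was 0.861 for IgG density, 0.893 for Zfp322a density and 0.548 for the ratio, the rho of the ratio with gene starts was 0.552, 173 bins were low, the chr8 ratio beyond 45 Mb was 0.693 and the SD of the log2 ratio was 0.21. Without a filter on bins, rho with GC was 0.90 for IgG and 0.918 for Zfp322a and the SD was 0.28, and with at least 75% unique starts the IgG rho was 0.927. Bins of 500 kb gave a Zfp322a rho of 0.933, a rho of the ratio with gene starts of 0.548, 303 high and 844 low bins and an SD of 0.28. Bins of 2 Mb gave 40 high and 156 low bins and an SD of 0.25. Counts at other bin sizes are of other numbers of bins, and the shares also moved, to 6.49% high and 18.1% low at 500 kb and 3.42% and 13.3% at 2 Mb. Leaving out chr8 beyond 45 Mb gave an IgG rho of 0.931, 0.659 for the ratio with GC, 0.622 for the ratio with gene starts and an SD of 0.24. Dividing by the median ratio of bins of like GC left 139 low bins. Leaving out reads within 1 kb of a transcript start gave 0.553 for the ratio with gene starts and an SD of 0.25. Leaving out the 5 segments, a choice made after seeing the data, gave 0.958 for IgG, 0.946 for Zfp322a, 0.686 for the ratio with GC, 0.647 for the ratio with gene starts, 76 high bins and an SD of 0.23. The cause of the other moves was not tested. On chr8 beyond 45 Mb the IgG density stayed between 1.36 and 1.59 and the Zfp322a density between 0.954 and 1.12. No paired analysis was possible because each antibody has 1 library and the labels carry no replicate numbers. Depth limits a single bin to a counting error of about 2.60% at the median, and with 1 library of each kind the spread between libraries is unknown.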
